A study of Mus musculus with 6 samples.

Results

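The erythroid genes of the embryonic kidney described here are 9 genes of red blood cells, chosen by name: the embryonic globins Hba-x, Hbb-y and Hbb-bh1, the later globin Hba-a1, and Alas2, Slc4a1, Klf1, Gata1 and Car1. Every probe that the platform annotation pairs with one of these symbols was taken, which gave 12 of the 45281 probes on the array and 9 of its 19057 named genes. Expression was measured on 6 Illumina bead arrays of total RNA from mouse kidneys of embryos at E13.5, in mid-gestation: 3 of YapCM-/- kidneys and 3 of control kidneys. The mice of both groups were of mixed strain, C57BL/6 with 129S1/SvImJ. The labels give no genotype for the control beyond that word, do not spell out CM, name no Cre driver and do not say whether kidneys were pooled or litters shared; from what is known of the study, CM means cap mesenchyme, a nephron progenitor population, as the place where Yap was deleted. Values are log2 signals that were already normalized between arrays, with a median of 7.30 on each array. Nothing says that replicates came from separate embryos, so p-values rest on a spread among arrays that may be technical.

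Red blood cells of the mouse embryo come in successive waves. Primitive erythroid cells arise in the yolk sac, enter the circulation as nucleated cells and make embryonic globins, with Hbb-bh1 and the zeta chain of Hba-x used early and Hbb-y for longer. Definitive erythroid cells are made in the fetal liver from mid-gestation and use the adult alpha chains, which primitive cells also make, with the adult beta chains of Hbb-bs and Hbb-bt. The kidney is not a site of red cell formation, and globin transcripts found in it are commonly taken to come from circulating red cells. The values below give the signals of red cell transcripts on each array, embryonic and later, in YapCM-/- and control kidneys. The sorted values are almost the same on every array, differing by at most 0.0061. Most adult globin and Hbb-y probes lie near the top of that shared scale, so a change common to them may be held down. Blood content in absolute terms was not measured.

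The promoters of the globins that the results turn on are shown because the embryonic and the later genes sit in the same 2 clusters, alpha on chromosome 11 and beta on chromosome 7, and share motifs that erythroid factors are known to read, Gata1 the GATA motifs and Klf1 the CACCC boxes. Sequences are from RefSeq, build GRCm38.p6, and run from 250 bases before to 50 bases after the start, 5′ to 3′ on the strand of the gene. Capitals mark the GATAA motif, the CACCC box, the CCAAT box and the TATAA box on either strand, and in Hbb-bt matches of the CCAAT box on opposite strands lie side by side.
Hba-x (embryonic, chr11:32276350-32276649, plus strand): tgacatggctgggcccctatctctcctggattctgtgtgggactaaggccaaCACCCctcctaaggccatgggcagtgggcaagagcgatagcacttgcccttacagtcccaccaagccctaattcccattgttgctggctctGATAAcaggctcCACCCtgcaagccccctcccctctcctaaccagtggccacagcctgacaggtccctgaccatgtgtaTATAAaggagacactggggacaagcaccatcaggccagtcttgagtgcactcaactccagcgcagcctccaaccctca
Hbb-y (embryonic, chr7:103853158-103853457, minus strand): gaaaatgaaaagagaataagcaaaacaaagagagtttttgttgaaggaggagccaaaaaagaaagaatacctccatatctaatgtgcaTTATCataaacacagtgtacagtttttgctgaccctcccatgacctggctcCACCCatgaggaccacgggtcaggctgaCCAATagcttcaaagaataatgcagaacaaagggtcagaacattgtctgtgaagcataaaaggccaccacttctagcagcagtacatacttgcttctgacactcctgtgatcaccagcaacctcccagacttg
Hba-a1 (later, chr11:32283422-32283721, plus strand): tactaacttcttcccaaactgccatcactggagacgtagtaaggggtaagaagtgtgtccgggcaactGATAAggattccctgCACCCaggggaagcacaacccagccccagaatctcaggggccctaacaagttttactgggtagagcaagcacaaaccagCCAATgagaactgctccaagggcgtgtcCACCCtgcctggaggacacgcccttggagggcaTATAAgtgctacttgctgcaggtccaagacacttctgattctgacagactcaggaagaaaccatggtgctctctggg
Hbb-bs (later, chr7:103827879-103828178, minus strand): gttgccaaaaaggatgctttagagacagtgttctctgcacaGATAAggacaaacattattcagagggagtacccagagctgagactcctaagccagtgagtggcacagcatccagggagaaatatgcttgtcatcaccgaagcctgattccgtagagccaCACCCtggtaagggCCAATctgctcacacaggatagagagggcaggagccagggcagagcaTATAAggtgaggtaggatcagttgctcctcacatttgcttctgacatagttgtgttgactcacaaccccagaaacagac
Hbb-bt (later, chr7:103813874-103814173, minus strand): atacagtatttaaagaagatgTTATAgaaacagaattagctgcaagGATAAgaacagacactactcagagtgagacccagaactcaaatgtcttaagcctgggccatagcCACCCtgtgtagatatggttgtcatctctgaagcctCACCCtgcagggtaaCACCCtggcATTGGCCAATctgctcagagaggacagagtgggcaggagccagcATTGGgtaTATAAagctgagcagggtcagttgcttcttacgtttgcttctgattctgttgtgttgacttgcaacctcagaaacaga

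All 5 windows hold GATAA and also CACCC, against 25.4% and 57.5% of the 32851 promoter windows of the table. CCAAT stood in 4 of the 5, against 37.4% of all windows, and TATAA in 4 of the 5, against 24.9%. The CACCC nearest to the start lay 95 bases before it in Hba-x and 111 bases in Hbb-y, 60 bases in Hba-a1, 90 bases in Hbb-bs and 89 bases in Hbb-bt. GATAA stood 107 bases before the start in Hba-x and 162 bases in Hbb-y, and between 182 and 209 bases before it in the 3 later genes. Hba-x lacks CCAAT and Hbb-y lacks TATAA in these letters within this window. The table held windows for 6 of the 9 members. The window of Hba-a2, the second adult alpha-globin gene, shares an unbroken run of 297 of its 300 bases with that of Hba-a1. No probe here is paired with Hba-a2, and a signal named Hba-a1 cannot be split between such near-identical copies.

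Kidney genes were measured on every array, and the globins differed between the control arrays. Of 13 genes that define the developing kidney, 10 were tested, among them Six2, Pax2, Lhx1, Foxd1 and Gdnf. Cited1, a nephron progenitor gene, fell, with 7.50 ± 0.036 in YapCM-/- and 8.22 ± 0.024 in control kidneys (SD, n = 3 each; limma adjusted p = 0.0066). Ret, the GDNF receptor of the ureteric bud, rose, with 9.93 ± 0.11 in YapCM-/- and 9.10 ± 0.14 in control kidneys (limma adjusted p = 0.0147). Of 8 genes of the fetal liver, a neighbouring blood-forming organ, Alb, Afp, Apoa1, Serpina1a, Ahsg and Fgb were below the level needed for testing. Control replicate 1 was the highest array on 3 of the 5 embryonic globin probes, those of Hba-x and the brighter ones of Hbb-bh1 and Hbb-y. It was the lowest on all 6 Hbb-bs probes and 3 of 4 Hbb-bt probes. Control replicate 3 was the lowest array on 4 tested member probes, that of Hba-x, both of Hbb-y and the brighter one of Hbb-bh1. On the dimmer Hbb-bh1 probe control replicate 1 was close to the lowest array, at 7.453 against 7.452 in YapCM-/- replicate 2. It was not extreme on the adult beta-globin probe of Hbb-b2. Differences of the tested members, of the other globins and of the list medians are therefore also given without control replicate 1. It was picked from these same globin values. Over all tested probes it had the highest array weight, 1.47 against 0.73 to 1.05, where a larger weight marks less spread about the group. In RNA of whole organs, fewer red cells and less RNA per cell cannot be told apart.

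No red cell member passed the test between YapCM-/- and control kidneys. Of the 9 members, 7 genes with 9 probes had a mean log2 signal above 7.29, which the brighter 50% of all probes exceed, and were tested. Limma, with p-values adjusted by the Benjamini-Hochberg method over all 22640 tested probes, called 0 of the 9 probes, against 0.177% of all tested probes. At an unadjusted p under 0.05 stood 1 of the 9, the Slc4a1 probe, against 11.5% of all tested probes. The groups overlapped at all 9, whereas 16.5% of all tested probes had groups that did not overlap. The differences, YapCM-/- minus control, ran from -0.21 to 0.26 on the log2 scale, 6 above and 3 below 0. Their median was 0.11, beside 0.0014 for all tested probes. Without control replicate 1 the median was 0.14, with 8 of the 9 differences above 0.

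**Figure D1:**
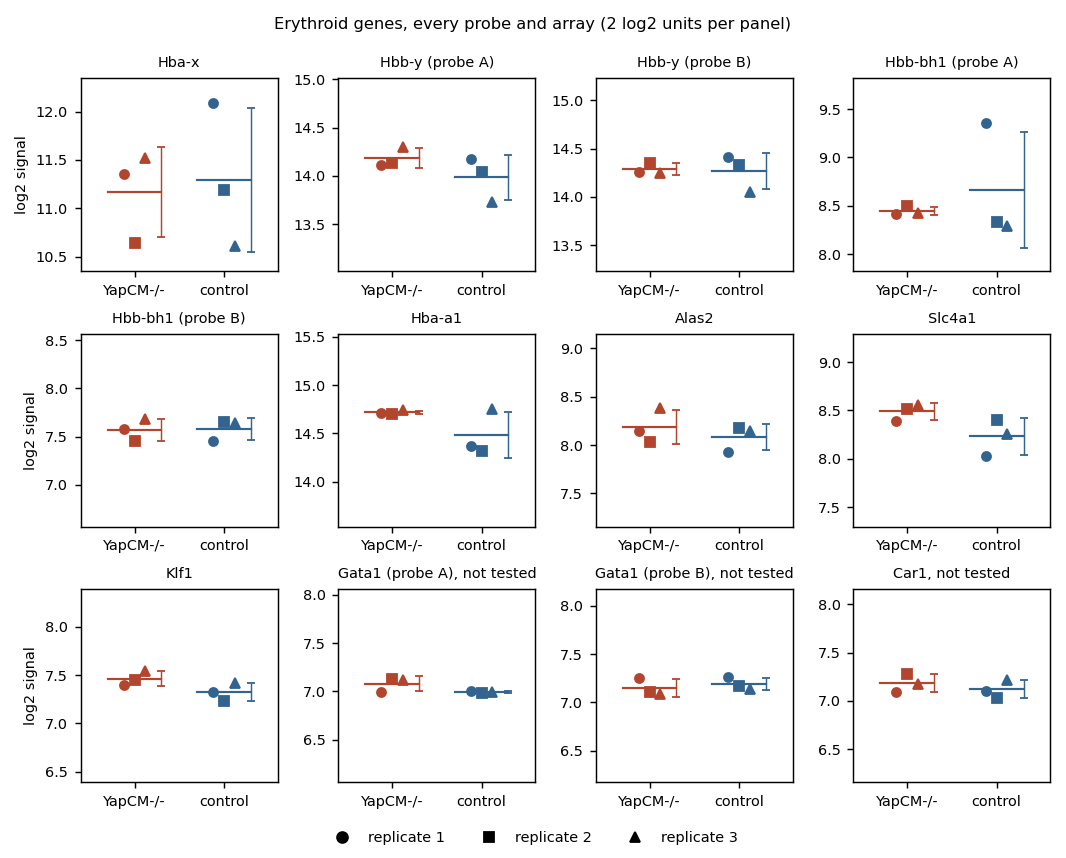
Log2 signal of the 12 probes of the 9 erythroid genes, in YapCM-/- (red, left) and control kidneys (blue, right) of each panel; points are arrays, with symbols for replicate numbers, horizontal lines are means and vertical bars are SDs of 3 arrays. Every panel spans 2 log2 units around its own level. Control replicate 1 (circle) lies above the other arrays for Hba-x, the first Hbb-bh1 probe and, narrowly, the second Hbb-y probe, and the groups overlap in all panels.

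Hba-x encodes the zeta chain, the embryonic alpha-like globin of primitive red cells. Its 1 probe read 11.35, 10.64 and 11.52 in YapCM-/- replicates 1, 2 and 3, against 12.09, 11.18 and 10.61 in control replicates 1, 2 and 3. The highest and the lowest array were both controls, and the YapCM-/- arrays lay between them. The highest array was 2.79-fold above the lowest. The within-group SD of 0.62 exceeded that of 99.9% of the tested probes, for which the median was 0.11. The difference between the groups was -0.12 (SE 0.33, limma adjusted p = 0.93), and without control replicate 1 it was 0.28 (adjusted p = 0.80), so the sign turned.

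Hbb-bh1 encodes the earliest beta-like globin of primitive red cells. Its brighter probe read 8.42, 8.50 and 8.42 in YapCM-/- kidneys and 9.35, 8.33 and 8.29 in control kidneys. Control replicate 1 stood apart, and the other 5 arrays lay within 8.29 to 8.50. The difference was -0.21 (SE 0.23, limma adjusted p = 0.79), and without control replicate 1 it was 0.13 (adjusted p = 0.70). The dimmer Hbb-bh1 probe did not show that array as high. It read 7.58, 7.45 and 7.68 in YapCM-/- kidneys and 7.45, 7.65 and 7.64 in control kidneys, a difference of -0.011 (SE 0.092, limma adjusted p = 0.98), and of -0.076 without control replicate 1.

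Hbb-y encodes the epsilon-type embryonic beta globin, which primitive red cells make for longest, and both of its probes were above 99.6% of all probes in level. One probe read 14.12, 14.14 and 14.30 in YapCM-/- kidneys and 14.18, 14.05 and 13.73 in control kidneys. The other read 14.26, 14.36 and 14.25 in YapCM-/- kidneys and 14.41, 14.33 and 14.05 in control kidneys. Control replicate 3 was the lowest array on both. The differences were 0.20 (SE 0.12, limma adjusted p = 0.56) and 0.024 (SE 0.10, adjusted p = 0.96). Without control replicate 1 they were 0.30 and 0.096.

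Hba-a1 encodes the adult alpha chain, used by primitive and definitive red cells alike. It read 14.71, 14.70 and 14.74 in YapCM-/- kidneys and 14.37, 14.31 and 14.75 in control kidneys. The 3 YapCM-/- arrays were nearly equal (SD 0.018), while control replicates 1 and 2 lay below them and control replicate 3 level with them (SD 0.24). The difference was 0.24 (SE 0.11, limma adjusted p = 0.46) and without control replicate 1 it was 0.19 (adjusted p = 0.72).

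Of the genes that make the red cell rather than its globin, Alas2, the erythroid enzyme that starts heme synthesis, read 8.15, 8.03 and 8.38 in YapCM-/- kidneys and 7.92, 8.18 and 8.14 in control kidneys. Its difference was 0.11 (SE 0.11, limma adjusted p = 0.77), and 0.028 without control replicate 1. Slc4a1, the anion exchanger band 3 of the red cell membrane, read 8.39, 8.52 and 8.56 in YapCM-/- kidneys and 8.03, 8.41 and 8.26 in control kidneys. YapCM-/- replicate 1 fell within the control range. The difference of 0.26 (SE 0.10, unadjusted p = 0.0334) did not pass in limma after adjustment (adjusted p = 0.40), and it was 0.16 without control replicate 1. On both probes control replicate 1 was the lowest array, as it was for most adult beta-globin probes.

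The erythroid transcription factors were close to the lower end of the scale. Klf1, the activator of adult beta-globin and many other red cell genes, read 7.40, 7.45 and 7.55 in YapCM-/- kidneys and 7.33, 7.23 and 7.42 in control kidneys, a difference of 0.14 (SE 0.083, limma adjusted p = 0.58). Without control replicate 1 it was 0.14. Its mean lay inside the limit for testing, at the 58.8th percentile of all probes. Gata1, the factor without which red cells do not mature, had 2 probes below the limit, at 6.990, 7.129 and 7.116 in YapCM-/- and 7.004, 6.985 and 6.997 in control kidneys on one. On the other they were at 7.26, 7.11 and 7.09 in YapCM-/- and 7.26, 7.17 and 7.14 in control kidneys. Car1, carbonic anhydrase of the mature erythrocyte, was also below it, at 7.09, 7.28 and 7.18 in YapCM-/- and 7.11, 7.03 and 7.22 in control kidneys. These 3 probes were not tested, and the groups overlapped at each.

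To set embryonic against later globins, all probes of both kinds were used, including those of the adult beta-globin genes, which are not members. They comprised 5 embryonic probes of 3 genes and 12 later probes of 4 genes, Hba-a1, Hbb-bt, Hbb-bs and Hbb-b2, all tested. Levels of different probes were not compared. Each probe was expressed as its deviation from its own mean over the 6 arrays, and the deviations were averaged per array. Limma called 0 of the 12 later probes and 0 of the 5 embryonic ones, against 0.177% of all tested probes. At an unadjusted p under 0.05 stood 3 later and 0 embryonic probes, against 11.5% of all tested probes. The later probes had a median difference of 0.31, with 10 above 0 and 2 below, and the embryonic probes a median of -0.011. Of the later probes 6 belong to Hbb-bs and 4 to Hbb-bt and mostly moved together, so these counts are not of independent measurements. By the brightest probe of each later gene, 3 of the 4 were above 0, with a median of 0.27. Without control replicate 1 the medians over all probes were 0.13 for the later and 0.13 for the embryonic probes. The median by the brightest probe of each later gene was then 0.16.

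The adult beta globins were mostly lowest on a control array. For Hbb-bs, the 6 probes averaged 14.59, 14.80 and 14.41 in YapCM-/- kidneys, against 13.71, 14.49 and 14.41 in control kidneys. Control replicate 1 was the lowest array on all 6, and YapCM-/- replicate 2 had the highest mean. The 6 differences ran from 0.27 to 0.54, with limma adjusted p from 0.35 to 0.73, and from -0.055 to 0.26 without control replicate 1. For Hbb-bt, the 4 probes averaged 14.06, 14.27 and 13.74 in YapCM-/- kidneys and 13.45, 14.12 and 13.84 in control kidneys. Control replicate 1 was the lowest array on 3 of these 4, and YapCM-/- replicate 3 on the other. The 4 differences ran from -0.028 to 0.31, and from -0.20 to 0.15 without control replicate 1. The groups did not overlap at 1 Hbb-bs and 1 Hbb-bt probe, both higher in YapCM-/- kidneys, as were 8.11% of all tested probes.

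**Figure D2:**
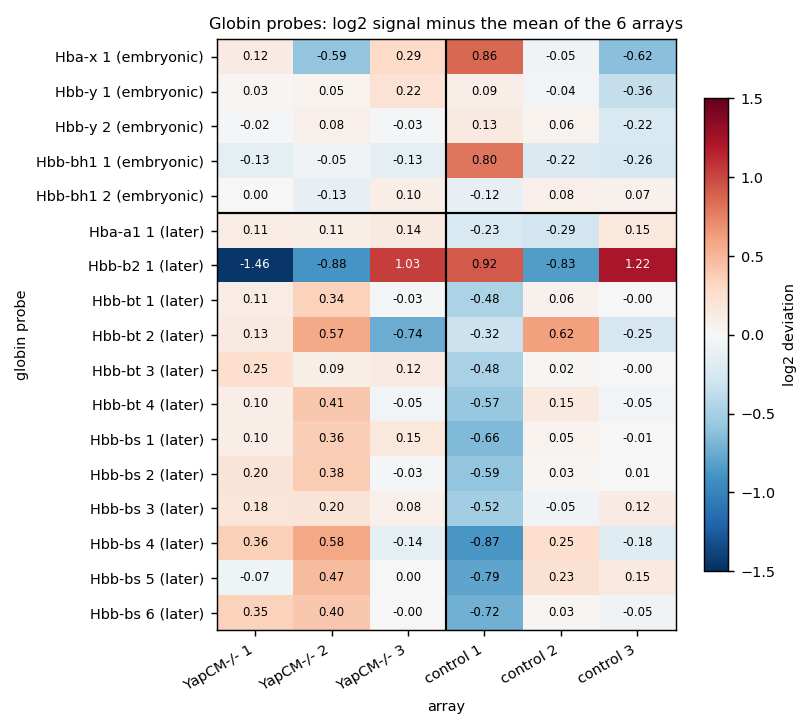
Deviation of each tested globin probe from its own mean over the 6 arrays (log2, colour and number), embryonic globins above and later globins below the horizontal line, YapCM-/- arrays left and control arrays right of the vertical line; numbers after the symbols count the probes of a gene. Control replicate 1 is highest for Hba-x, the first Hbb-bh1 probe and the second Hbb-y probe and lowest for 9 of the 12 later probes. Hbb-b2 follows neither pattern.

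The embryonic minus later value, as mean log2 deviations, was -0.030, -0.38 and 0.045 in YapCM-/- replicates 1, 2 and 3, against 0.80, -0.058 and -0.37 in control replicates 1, 2 and 3. It averaged -0.12 ± 0.23 in YapCM-/- kidneys and 0.12 ± 0.60 in control kidneys (SD, n = 3 each), a difference of -0.24 that was smaller than the pooled SD of 0.46. The YapCM-/- arrays lay inside the control range except for YapCM-/- replicate 2, which was just below it. In control replicate 1 the embryonic probes stood at 0.35 and the later probes at -0.44, which is 1.74-fold on a linear scale. That value counts dim and bright probes alike and is not a ratio of summed globin signal. By gene, the embryonic deviations on that array were 0.86 for Hba-x, 0.34 for Hbb-bh1 and 0.11 for Hbb-y. In YapCM-/- replicate 2 the signs were opposite, with the embryonic probes at -0.13 and the later ones at 0.25. In control replicate 3 the embryonic probes were lowest, at -0.28, with the later ones at 0.092. Without control replicate 1 the control mean was -0.21 and the difference 0.093, with the sign turned. With Hba-a1 as the one later globin the difference was -0.26, and -0.040 without control replicate 1, so there the sign did not turn. Without the Hbb-b2 probe it was -0.34, and 0.031 without control replicate 1 as well. In both settings, added after the data were seen, control replicate 1 was highest, at 0.58 and 0.92.

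**Figure D3:**
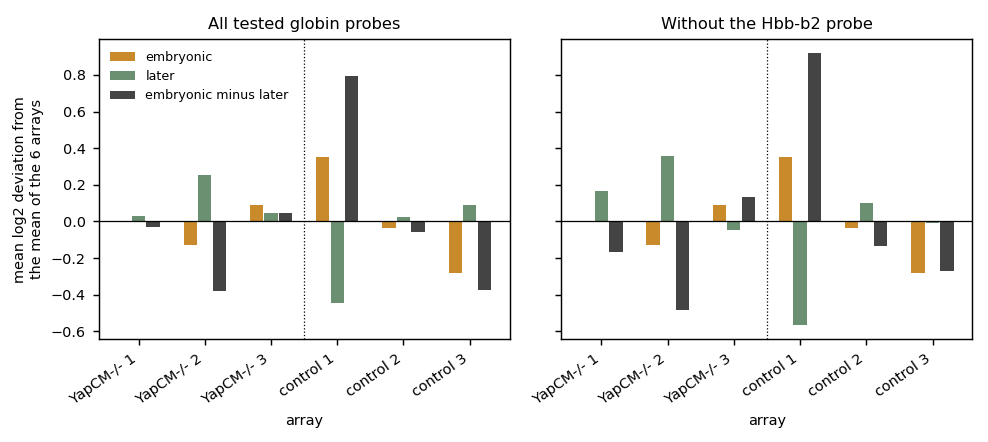
Mean log2 deviation of the embryonic globin probes (ochre), the later globin probes (green) and their difference (dark) on each array, YapCM-/- left and control right of the dotted line; the left panel uses all 12 later probes and the right panel leaves out Hbb-b2. The dark bar of control replicate 1, 0.80 and 0.92, is the tallest in both panels, and the other 5 arrays lie between -0.48 and 0.13.

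Hbb-b2 behaved unlike the other globins. It is an adult beta-globin gene of the Hbb-d haplotype found in several inbred strains, whereas C57BL/6 mice carry the Hbb-s haplotype with Hbb-bs and Hbb-bt. Its 1 probe read 8.66, 9.23 and 11.15 in YapCM-/- kidneys and 11.03, 9.28 and 11.34 in control kidneys. YapCM-/- replicate 3 and control replicates 1 and 3 lay near 11, and the other 3 arrays near 9, with a 6.39-fold span from lowest to highest. Its within-group SD exceeded that of more than 99.9% of the tested probes. The difference was -0.87 (SE 0.63, limma adjusted p = 0.66), and -0.63 without control replicate 1, with both levels present in both groups. The labels do not give the haplotype of any sample, and its part in these values was not tested.

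Other genes of the red cell programme, taken from lists by role, also had no called member, each gene standing by its brightest tested probe. Among genes named this way 0.264% were called, 13.46% had an unadjusted p under 0.05, 18% had groups that did not overlap and 48.8% had a difference below 0. Heme synthesis, Alas2 included, had 9 tested genes, 0 called in limma, 1 at an unadjusted p under 0.05, and a median of 0.068, beside 0.0039 for all named genes. Alad, the second enzyme of the pathway, was at 0.36 (limma adjusted p = 0.39) and at 0.54 without control replicate 1. It read 11.69, 11.62 and 11.62 in YapCM-/- kidneys and 11.66, 11.17 and 11.03 in control kidneys. Slc25a38, the mitochondrial glycine carrier, was at 0.20 (adjusted p = 0.44). The red cell membrane list, which contains Slc4a1, had 9 tested genes, 0 called, 2 at an unadjusted p under 0.05 and a median of -0.0068. Aqp1, a water channel of red cells, endothelium and the proximal tubule, was at 0.30 (adjusted p = 0.28), with groups that did not overlap. The groups of Rhag did not overlap either, but it was lower in YapCM-/- kidneys, at -0.11 (limma adjusted p = 0.63). Of the 16 membrane genes with a probe, 7 were too dim for testing, among them Epb42, Kel, Icam4 and Rhd.

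The erythroid factor list, with Klf1, had 10 tested genes, 0 called in limma and 2 at an unadjusted p under 0.05, with 8 of the 10 differences above 0 and a median of 0.11. Lmo2, a bridging protein of the Gata1 and Tal1 complex that endothelium also makes, was at 0.25 (adjusted p = 0.31), with 10.47, 10.57 and 10.69 in YapCM-/- kidneys and 10.25, 10.33 and 10.41 in control kidneys. Lyl1, a relative of Tal1, was at -0.20 (adjusted p = 0.38). Iron uptake had 6 tested genes, 0 called and 0 at an unadjusted p under 0.05, with a median of -0.058. Its smallest p belonged to Slc11a2, the iron transporter of endosomes, at -0.17 (adjusted p = 0.51), followed by Tfr2 at -0.16 (adjusted p = 0.54). Red cell enzymes had 9 tested genes, 0 called and 2 at an unadjusted p under 0.05, with a median of -0.10. Car2, a carbonic anhydrase of red cells and of kidney epithelia, was at -0.23 (adjusted p = 0.42) and catalase, Cat, at -0.23 (adjusted p = 0.43). Red cell maturation genes had 7 tested members, 0 called and 2 at an unadjusted p under 0.05, with a median of -0.096. Gclm, which takes part in glutathione synthesis in many cells, was at -0.37 (adjusted p = 0.18) and Ube2o, a ubiquitin enzyme that clears ribosomes from reticulocytes, at 0.22 (adjusted p = 0.38).

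Without control replicate 1 the list medians were 0.042 for heme synthesis, 0.097 for the erythroid factors, -0.029 for iron uptake, -0.11 for the red cell enzymes and -0.046 for the maturation genes. The median of the red cell membrane list was 0.089 without that array, so its sign turned.

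**Figure D4:**
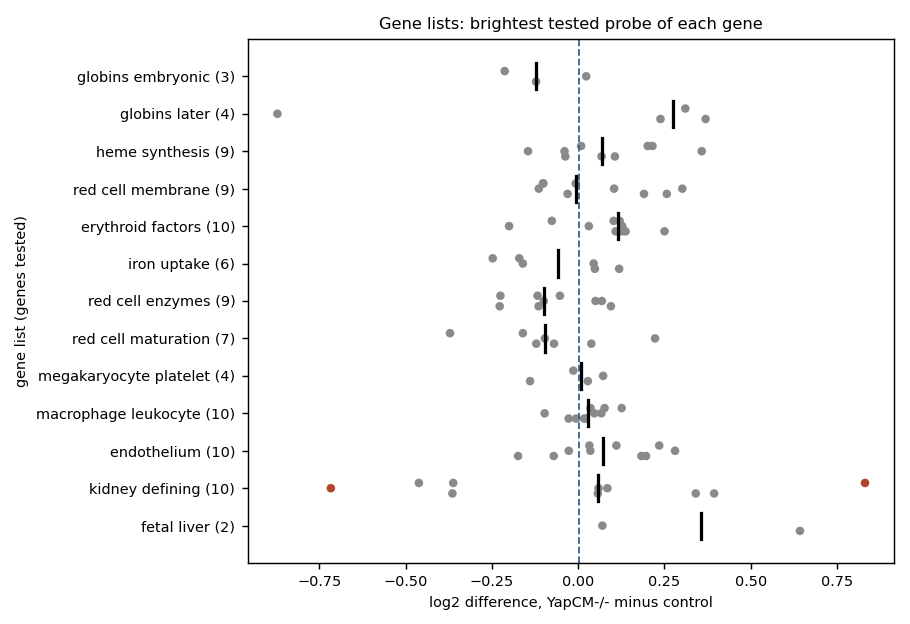
Log2 difference, YapCM-/- minus control, of each tested gene (points, brightest probe) in 13 gene lists, with the median of each list (black bar) and of all named genes (dashed line, 0.0039); red points passed an adjusted p of 0.05. The 2 red points, Cited1 and Ret, are kidney genes, and the points of the red cell lists lie on both sides of 0.

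Markers of other blood and vessel cells were read beside the globins, again by the brightest tested probe of each gene. Among all genes named this way 0.264% were called, 13.46% had an unadjusted p under 0.05 and 18% had groups that did not overlap. Of 11 megakaryocyte and platelet genes 4 were tested, with 0 called and 0 at an unadjusted p under 0.05 in limma; Pf4, a platelet chemokine, was at -0.14 (adjusted p = 0.78) and Itga2b, the platelet integrin, at 0.072 (adjusted p = 0.87), while Ppbp, Gp5 and Gp6 were below the limit. The median of the 4 was 0.0071, and 0.049 without control replicate 1. Of 13 macrophage and leukocyte genes 10 were tested, with 0 called and 0 at an unadjusted p under 0.05; Mrc1 was at 0.13 (adjusted p = 0.62) and C1qb at -0.097 (adjusted p = 0.74), and Ptprc, carried by all leukocytes, was below the limit. The median of the 10 was 0.029, and 0.0034 without control replicate 1. All 10 endothelial genes were tested, with 0 called and 4 at an unadjusted p under 0.05. Their median was 0.073, and 0.052 without control replicate 1. Of the 10 differences, 7 were above 0 and 3 below. Esam, an endothelial adhesion molecule, was at 0.28 (adjusted p = 0.28) and Tek, the angiopoietin receptor, at 0.20 (adjusted p = 0.38), both with groups that did not overlap. The groups of Flt1 did not overlap either, but it was lower in YapCM-/- kidneys, at -0.17 (limma adjusted p = 0.44). The summed signal of the endothelial list on a linear scale ran from 10678 to 11930 in YapCM-/- kidneys and from 9576 to 10939 in control kidneys, and that of the later globins from 79556 to 84936 in YapCM-/- kidneys and from 56580 to 78673 in control kidneys. The embryonic globins summed to 22567 to 22924 in YapCM-/- kidneys and to 18874 to 26773 in control kidneys. Each sum takes the brightest tested probe of a gene. The later globin sums did not overlap between the groups. Of the 12 later probes themselves, 2 had groups that did not overlap, beside 16.5% of all tested probes. The part of vessel content in the globin values was not tested. Of 8 fetal liver genes 2 were tested, with 0 called and 0 at an unadjusted p under 0.05. Ttr, transthyretin, was at 0.64 (adjusted p = 0.49), read 8.76 on YapCM-/- replicate 3 and lay between 7.05 and 7.35 on the other arrays. Apob was at 0.070 (adjusted p = 0.80).

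The genes most like the erythroid members in their profile over the 6 arrays were ranked by Pearson's r against the mean deviation of the 7 tested members, as a description. That profile was 0.018, -0.050 and 0.12 in YapCM-/- replicates 1, 2 and 3, and 0.14, -0.082 and -0.15 in control replicates 1, 2 and 3. Members were not scaled, so those that varied most weigh most, and the profile is not shared by all of them. On control replicate 1, Hba-x deviated by 0.86, Hbb-bh1 by 0.80 and Hbb-y by 0.13. On the same array Hba-a1 deviated by -0.23, Alas2 by -0.21, Slc4a1 by -0.33 and Klf1 by -0.066. The 10 nearest genes were Syp (r = 0.99), Heca, Samd5, Gper1, Mfsd5, Dclk1, Rev1, Tent5c, Gm9991 and Pde6a (r = 0.95). They were picked from 11762 genes over 6 arrays that share a platform and a normalization, and varied little, by 0.068 to 0.40 on the log2 scale between highest and lowest array. Tent5c was also a listed red cell gene. Its values lay between 7.34 and 7.42 in YapCM-/- kidneys and between 7.28 and 7.43 in control kidneys. The members were left out of the ranking, so of the tested globins only Hbb-bt, Hbb-bs and Hbb-b2 could appear, and none of them did.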

How the data were processed

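Per the labels' protocols, biotin-labelled cRNA made from total kidney RNA was read on Illumina bead arrays. The authors deposited log2 values of 45281 probes on 6 arrays. The sorted values of the columns differ by at most 0.0061, as quantile normalization leaves them, and the sources used here do not name the software or a background step. A second deposited table has 12 columns of per-sample values whose names match no sample's labels, and was not used. Bead numbers are not given, so 3 arrays per group limit the precision.

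Probes were named through the platform annotation, where 34885 had 1 gene symbol; 34807 of these matched RefSeq of GRCm38.p6, and 0 symbols changed. YapCM-/- and control arrays were compared in limma 3.58.1 (lmFit, eBayes, R 4.3.3; two-sided) over the brighter 50% of probes by mean, with a Benjamini-Hochberg threshold of 0.05, tested on simulated data. The members, gene lists and the rule for named genes were chosen with earlier results of these data known. The rule takes all members, the members past the threshold (up to 4) or else the 2 with the smallest p from each list, and the 10 genes nearest in profile. Flt1 and Rhag were added outside it, beside genes of their lists that differed the other way. Arrays of the same replicate number were not treated as pairs in the main fit. Their deviations from the group means correlated at 0.13, 0.14 and -0.02, and those of other pairs at -0.30 to 0.23. With 3 arrays per group these values cannot show whether a number marks a shared litter or day. Alternatives covered the filter, eBayes options, array weights, a replicate block, the threshold, background, normalization, probes of a gene and each array left out.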

Additional observations from a re-analysis of the deposited data

How the results depend on the processing

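No member probe passed the threshold in limma under any of the settings tried, 0 at an adjusted p of 0.1 included. Among all tested probes the count of 40 was 26 with the 25% brightest probes, 64 with trend and robust eBayes, 8 with the background subtracted, 87 at an adjusted p of 0.1 and 16 with the mean of all probes of a gene. With the replicate number as a block it was 138, with 0 called member probes. The labels do not say whether a number marks arrays that belong together. Leaving out 1 array gave 6 to 27, with 9, 12 and 6 without control replicates 1, 2 and 3 and 27, 25 and 27 without YapCM-/- replicates 1, 2 and 3. The median difference of the tested member probes was 0.18 with the background subtracted, against 0.11, and 0.042 to 0.15 with 1 array left out. The embryonic minus later globin difference of -0.24 ran from -0.49 to 0.093 with 1 array left out, and turned positive only without control replicate 1. It was -0.34 with array weights, -0.037 with the mean of all probes of a gene and -0.12 with the brightest probe of each globin. With 1 array left out, differences ran from -0.46 to 0.28 for Hba-x, from -0.082 to 0.096 for the second Hbb-y probe, from -0.40 to 0.13 for the brighter Hbb-bh1 probe and from -0.076 to 0.049 for the dimmer one, which was also 0.019 with array weights; these 4 changed sign. The other tested member probes stayed above 0 with 1 array left out, but their sizes moved: Alas2 was 0.0097 without YapCM-/- replicate 3, 0.18 without YapCM-/- replicate 2 and 0.028 without control replicate 1, the first Hbb-y probe was 0.073 without control replicate 3, and Hba-a1 was 0.37 without control replicate 3 and 0.16 without control replicate 2. The cause of these changes was not tested. Gata1 and Car1 were below the filter, and 3 arrays per group limit what could be called. Of the same-numbered arrays, not every one correlated best with its own number.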

Other observations

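Prdx2, a peroxiredoxin abundant in red cells, had 3 probes that did not move together, and is described after its values were seen. The brightest read 13.76, 13.63 and 13.52 in YapCM-/- kidneys and 13.52, 13.64 and 13.46 in control kidneys, a difference of 0.095 (limma adjusted p = 0.75). The other 2 differed the other way. The dimmest read 7.17, 7.46 and 9.22 in YapCM-/- kidneys and 8.79, 9.14 and 9.23 in control kidneys, a difference of -1.11 (unadjusted p = 0.0259, limma adjusted p = 0.37). The remaining probe read 8.35, 8.61 and 10.23 in YapCM-/- kidneys and 10.15, 9.75 and 9.56 in control kidneys, a difference of -0.76 (limma adjusted p = 0.51). YapCM-/- replicates 1 and 2 were low on both of these and not on the brightest. On the Hbb-b2 probe the same 2 arrays and control replicate 2 were the low ones. Hbq1a and Hbq1b, the theta globins of the alpha cluster, were below the limit for testing, at 7.03 to 7.31 in YapCM-/- kidneys and 7.07 to 7.29 in control kidneys.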
